A study of Mus musculus with 44 samples.

Results

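The response of mouse hepatocytes to 2 diets that injure the liver was compared at the mild stage of disease. For every gene, the change between mild and control mice on one diet was subtracted from the change on the other, and this difference of 2 changes on the log2 scale is called the diet difference. A positive value means that the gene went up more, or down less, on the choline-deficient diet than on the fructose diet. The comparison used 16 of the 44 libraries of the series, chosen by their labels, with 4 mice in each of 4 groups, and all 13808 genes with enough counts were tested.

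All mice were males of the HEP-INTACT line, in which nuclei of hepatocytes carry a tag and are pulled out of the liver by immunoprecipitation. The FPC mild group had eaten a diet of fructose, palmitate and cholesterol for 20 weeks, and the CDAHFD mild group a high-fat, amino acid-defined diet deficient in choline for 7 weeks. Each had its own controls on low-fat diet (LFD) for the same number of weeks, called FPC controls and CDAHFD controls here. Mild means disease scored mild on histology, so mice were sorted into mild and advanced disease by their livers and not at random. The promoter that drives the tag and the ages of the mice are not given in the sources used here. Diet and weeks on it changed together and cannot be told apart. Nothing states that the mice of a group came from separate litters or cages, so the p-values measure the spread between these mice.

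Hepatocytes make fatty acids and cholesterol under the transcription factors SREBP1 and SREBP2, and cholesterol from food lowers SREBP2 activity. They use choline to make phosphatidylcholine, the phospholipid that coats the very low density lipoprotein (VLDL) particles in which triglyceride leaves the liver. Without choline, fat accumulates because it cannot be exported, while fructose feeds fat synthesis.

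The 16 hepatocyte libraries held 14792657 to 28217241 counts. Replicate libraries differed by more than sampling noise, with a chi-square per degree of freedom of 22.4 to 271.7 between pairs of a group, and no 2 libraries were merged. The first principal component (76.4% of the variance) separated control from mild mice. The second (8.4%) separated the CDAHFD groups from the FPC groups, including the 2 control groups, which were both on low-fat diet. Summed hepatocyte markers reached 13190 to 15760 CPM (the count scaled to a common library total) in CDAHFD mild libraries. In FPC mild libraries they reached 10170 to 13120 CPM, which was lower in every FPC mild mouse. CPM of single genes, given below, were also adjusted by the library scaling used in the fit. The endothelial share, which is the summed endothelial marker CPM in hepatocyte nuclei as a percentage of that in whole liver nuclei of the same mouse, was 11.8% ± 0.741 (SD, n = 4) in CDAHFD mild and 17.5% ± 4.68 (SD, n = 4) in FPC mild mice. It was 8.95% ± 1.5 and 9.11% ± 0.697 (SD, n = 4 each) in their controls. Mouse FPC_Mild_6825 had the highest share, 23.9%.

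Genes called on both diets mostly changed in the same direction. Lower diet differences were called for 8 of 20 genes of fatty acid and triglyceride synthesis, and higher ones for 13 of 20 genes of cholesterol synthesis. The diet difference passed an adjusted p of 0.05 (edgeR quasi-likelihood test with Benjamini-Hochberg adjustment, the meaning of "called" throughout) for 772 genes above 0 (5.59% of those tested) and 917 below 0 (6.64%), 12.2% in all. It was at least 2-fold for 422 of the higher and 346 of the lower genes. Leaving out 1 mouse changed these counts most: 486 higher and 594 lower without FPC_Control_6952, 501 and 590 without FPC_Mild_6825, 436 and 519 without FPC_Mild_6887, and 400 and 489 without CDAHFD_Mild_9852. CDAHFD mild mice differed from their controls in 4533 genes that rose and 3316 that fell (32.8% and 24% of those tested, 56.8% in all), and FPC mild mice in 3025 that rose and 1666 that fell (21.9% and 12.1%, 34% in all). Of the 3629 genes called in both diets, 3538 went the same way and 91 went opposite ways, and across genes, which are not independent replicates, the 2 changes had a Pearson r of 0.78 and a Spearman rho of 0.71. These 2 changes share no library.

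**Figure D1:**
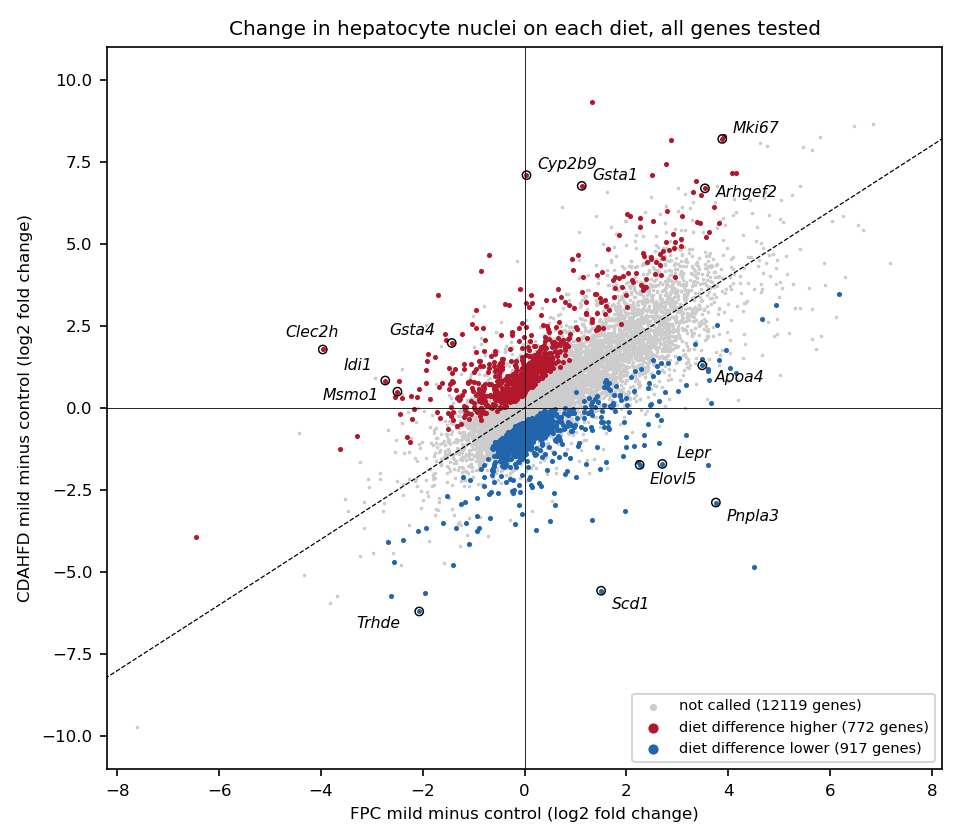
Each point is 1 of the 13808 genes tested, with the FPC change on the x axis and the CDAHFD change on the y axis (log2 fold change, mild minus control), the dashed line marking equal change. The 772 red genes lie above the line and the 917 blue genes below it, and Scd1, Pnpla3, Elovl5 and Lepr sit in the quadrant of opposite directions.

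The called genes were sorted by how they changed on each diet. Of the 772 higher genes, 455 rose on CDAHFD and were not called on FPC, 137 rose on both, 109 fell on FPC and were not called on CDAHFD, 49 rose on CDAHFD and fell on FPC, 9 fell on both and 13 were called on neither. Of the 917 lower genes, 608 fell on CDAHFD and were not called on FPC, 124 fell on both, 104 rose on FPC and were not called on CDAHFD, 42 fell on CDAHFD and rose on FPC, 30 rose on both and 9 were called on neither.

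The 2 control groups, both on low-fat diet, also differed from each other. Between CDAHFD and FPC controls, 171 genes were higher and 354 lower (1.24% and 2.56% of those tested, 3.8% in all). Leaving out 1 mouse gave 94 higher and 210 lower without FPC_Control_6816, 72 and 217 without FPC_Control_6952, and 108, 112 and 103 higher without FPC_Control_6852, FPC_Control_6953 and CDAHFD_Control_10113. The genes called between controls with all mice included 136 of the 772 higher genes, 132 of them with lower levels in the CDAHFD controls. They also included 56 of the 917 lower genes, 49 of them with higher levels in the CDAHFD controls. Compared directly, CDAHFD mild and FPC mild mice differed in 5279 genes (38.2%), among them 621 of the higher and 823 of the lower genes. Both comparisons share libraries with the diet difference, so these overlaps and their directions are partly built in and are no separate result. The called genes also differed in length: the median was 15.4 kb for the higher, 54.4 kb for the lower and 23.5 kb for all genes tested with a length, and introns were counted with exons. The part of gene length in the called differences was measured only through an offset for length, which gave 740 higher and 800 lower genes of 12152.

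**Figure D2:**
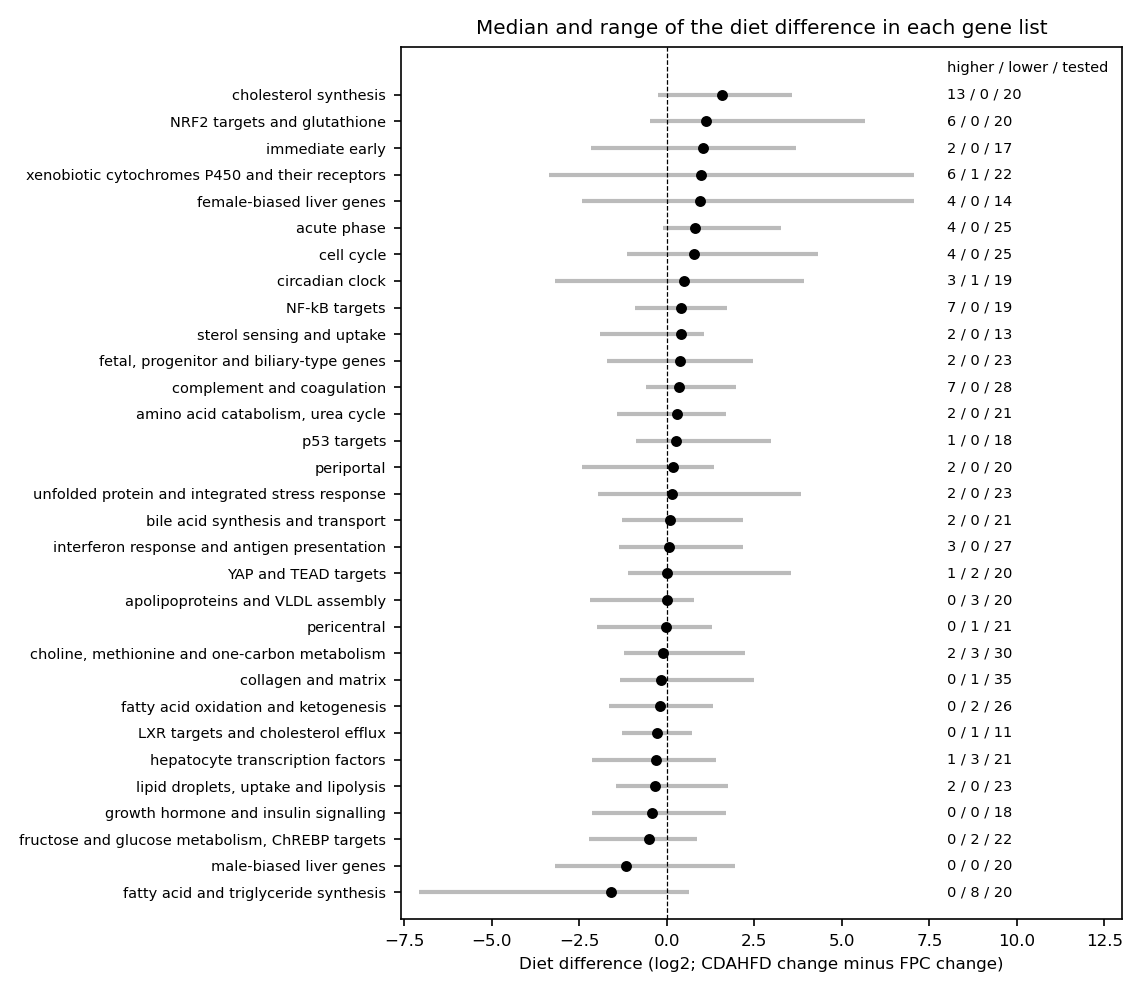
For each of 31 gene lists, the point marks the median diet difference (log2), the bar runs from its lowest to its highest member, and the numbers give members higher, lower and tested. The dashed line is the median of all genes tested (0.001), with cholesterol synthesis at 1.58 at the top and fatty acid and triglyceride synthesis at -1.58 at the bottom.

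Where 0 members of a list are given as called in a direction, edgeR called none. This held for 41 directions over the 40 lists, in which 26 members in all had an unadjusted p under 0.05 and DESeq2 called 8. The lists of fructose and glucose metabolism, bile acids, amino acid breakdown, fatty acid oxidation, lipid droplets, stress response, fetal genes, p53 targets, pericentral genes and collagens each had 1 or 2 calls. So did targets of the sterol sensor LXR, periportal genes and immediate early genes, and interferon response had 3. These were 2.86% to 11.8% of their members, near or below the 12.2% of all genes called, so such a count is not a result about the list. Every list count of the diet difference stands against 5.59% of all genes higher and 6.64% lower. Counts on 1 diet stand against 32.8% of all genes rising and 24% falling on CDAHFD, and 21.9% and 12.1% on FPC.

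Fatty acid and triglyceride synthesis genes fell in hepatocytes of the choline-deficient diet and rose or were not called for most members on the fructose diet. Of 20 genes tested, 8 were called lower in the diet difference (against 6.64% of all genes) and 0 higher, with a median of -1.58 against 0.001 for all genes. On CDAHFD 12 of the 20 fell and 1 rose (against 24% and 32.8% of all genes). On FPC 2 fell and 5 rose (against 12.1% and 21.9%).

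Scd1 (NM_009127, mm10 chromosome 19, 44394450 to 44407709), the desaturase that makes monounsaturated fatty acids, was the member with the most negative diet difference. Its levels were 152, 66.2, 111 and 276 CPM in CDAHFD controls and 2.8, 2.06, 2.84 and 5.19 CPM in CDAHFD mild mice. They were 304, 251, 197 and 430 CPM in FPC controls and 707, 1038, 829 and 776 CPM in FPC mild mice. The mild groups lay apart from their controls in opposite directions, while the control groups overlapped. Scd1 fell by 5.57 ± 0.56 (log2, SE; adjusted p = 2.62e-07) on CDAHFD and rose by 1.5 ± 0.46 (adjusted p = 0.0155) on FPC, a diet difference of -7.07 ± 0.71 (adjusted p = 2.19e-05).

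Pnpla3, a lipid droplet hydrolase whose human form carries a fatty liver risk variant, was also called lower. It was at 41.8, 10.6, 5.62 and 12.6 CPM in CDAHFD controls, 2.33, 2.98, 2.2 and 2.07 CPM in CDAHFD mild, 18.3, 9.81, 2.77 and 2.66 CPM in FPC controls and 119, 102, 114 and 119 CPM in FPC mild mice. The FPC mild mice were above all others, and the CDAHFD mild mice were below their own controls and overlapped the lowest 2 FPC controls. Its diet difference was -6.64 ± 1.0 (adjusted p = 0.000872). Elovl5, which lengthens polyunsaturated fatty acids, ran from 85.8 to 142 CPM in CDAHFD mild and from 1016 to 1291 CPM in FPC mild mice, with a diet difference of -3.99 ± 0.61 (adjusted p = 0.000872).

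Other enzymes that supply or lengthen fatty acids fell on CDAHFD and were not called on FPC. Me1, which makes NADPH for fat synthesis, was at 51.4 to 73.6 CPM in CDAHFD mild against 316 to 629 CPM in their controls, and its FPC change was -0.12 ± 0.32 (log2), giving a diet difference of -2.84 ± 0.47 (adjusted p = 0.00136). Acaca, the acetyl-CoA carboxylase that commits carbon to fatty acids, fell by 2.50 ± 0.30 on CDAHFD and changed by -0.21 ± 0.28 on FPC (diet difference -2.29 ± 0.40, adjusted p = 0.00182). Elovl6, which lengthens saturated fatty acids, had a diet difference of -3.35 ± 0.74 (adjusted p = 0.00971), with mouse FPC_Mild_6825 at 1113 CPM against 152 to 286 CPM in the other 3. Scd3, a near copy of Scd1 whose reads could be divided with it, had a diet difference of -5.09 ± 0.83.

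Fasn, the fatty acid synthase, fell by 2.09 ± 0.45 on CDAHFD (adjusted p = 0.000637), but its diet difference of -1.81 ± 0.61 was not called (adjusted p = 0.0578). Acly at -1.52 ± 0.59 and Thrsp at -2.75 ± 1.03 were not called either (adjusted p = 0.0963 and 0.0835). Srebf1, which encodes SREBP1 and overlaps Rai1, had a diet difference of -1.59 ± 0.49 (adjusted p = 0.0408) that lost its call in 13 of 23 alternative settings. These settings were another scaling, another tool, 2 other filters, a fit to the 16 libraries alone, a subtraction of whole liver signal, an offset for gene length, and leaving out each of the 16 mice in turn, and they are meant wherever settings are counted. Fasn was called in 6 of the 23, Acly in 2 and Thrsp in 1. Acaca, Srebf1, Hmgcs1 and Hmox1 are described here because of their roles and were picked after their values were seen.

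**Figure D3:**
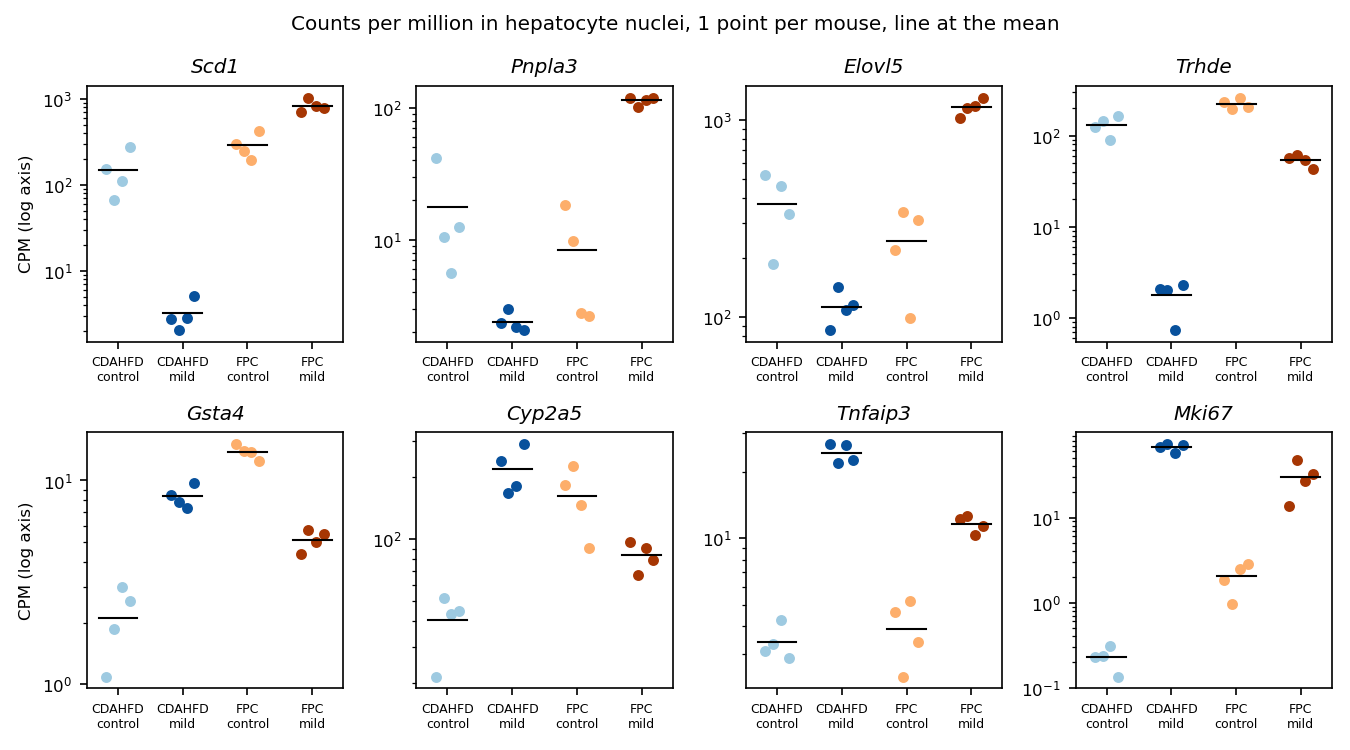
Each point is the level of 1 gene in 1 mouse (CPM, log axis) and each line the mean of 4 mice, for 8 genes in the 4 groups. CDAHFD mild mice sit at 2.06 to 5.19 CPM of Scd1 and FPC mild mice at 707 to 1038 CPM, while for Mki67 both mild groups lie above both control groups.

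Cholesterol synthesis genes showed the opposite diet difference: they fell on the diet that contains cholesterol and rose or were not called for most members on the choline-deficient one. Of 20 genes tested, 13 were called higher in the diet difference (against 5.59% of all genes) and 0 lower, with a median of 1.58. On FPC 18 of the 20 fell (against 12.1% of all genes), and on CDAHFD 6 rose and 3 fell (against 32.8% and 24%). The baseline differed as well, since 14 of the 20 were lower in CDAHFD than in FPC controls, with a median log2 difference of -1.28.

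Mvd (NM_138656, mm10 chromosome 8, 122433596 to 122443422), which makes isopentenyl diphosphate, was at 6.69, 4.5, 4.37 and 2.61 CPM in CDAHFD controls, 8.94, 9.31, 14.4 and 9.07 CPM in CDAHFD mild, 16.7, 18.1, 17.4 and 12.2 CPM in FPC controls and 5.51, 7.57, 5.66 and 6.46 CPM in FPC mild mice. The mild groups lay apart, while CDAHFD mild overlapped FPC controls and CDAHFD controls overlapped FPC mild mice. Mvd rose by 1.20 ± 0.28 on CDAHFD and fell by 1.36 ± 0.27 on FPC, a diet difference of 2.55 ± 0.39 (adjusted p = 0.000798). Msmo1, a demethylase late in the pathway, was at 13.6 to 55.9 CPM in CDAHFD controls and 42.9 to 77 CPM in CDAHFD mild mice, and at 121 to 225 CPM in FPC controls and 29.4 to 32 CPM in FPC mild mice. FPC controls were above every other mouse, and the mild groups lay apart. Msmo1 had a diet difference of 3.0 ± 0.45 (adjusted p = 0.000828), Idi1, the isopentenyl diphosphate isomerase, 3.57 ± 0.59 (adjusted p = 0.00136), Sqle, the squalene epoxidase, 3.08 ± 0.52 (adjusted p = 0.00153), and Hmgcs1, an early enzyme of the pathway, 2.54 ± 0.52 (adjusted p = 0.00578).

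**Figure D4:**
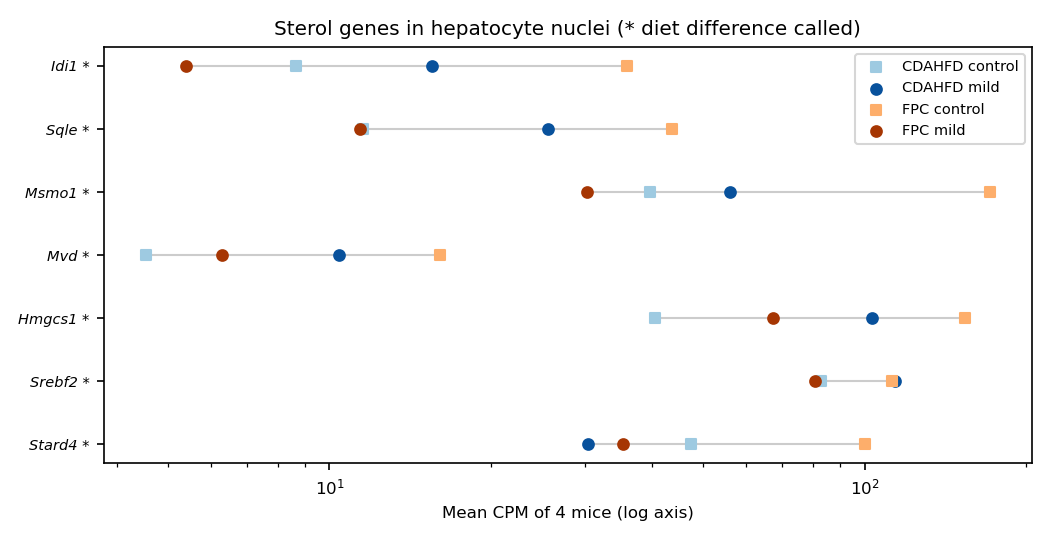
Each symbol is the mean level of 1 of 7 named sterol genes in 4 mice (CPM, log axis), with squares for controls and circles for mild mice, and an asterisk where the diet difference was called. FPC controls (light orange) have the highest mean for these genes except Srebf2, for example 16.1 CPM of Mvd against 4.54, 10.4 and 6.3 CPM in CDAHFD control, CDAHFD mild and FPC mild mice.

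Sequence before the start of these genes was read from the RefSeq promoter table (build GRCm38.p6), which held 10 of the 14 called sterol genes looked up. The 250 bases before the start are shown for Mvd, Msmo1 and Idi1, the 3 of the 10 with the smallest p, and for Hmgcs1, the only one of the 10 that holds the sterol response motif TCACNCCAC on either strand. Capitals mark TCACNCCAC and CCAAT or its reverse ATTGG, the site of NF-Y, a factor that works beside SREBP2.
Mvd (chr8:122443423-122443672, minus strand): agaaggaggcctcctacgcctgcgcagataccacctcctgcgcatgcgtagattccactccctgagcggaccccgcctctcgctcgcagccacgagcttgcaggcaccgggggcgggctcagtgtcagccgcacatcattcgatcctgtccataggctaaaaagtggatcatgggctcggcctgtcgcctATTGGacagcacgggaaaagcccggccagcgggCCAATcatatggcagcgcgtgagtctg
Msmo1 (chr8:64733579-64733828, minus strand): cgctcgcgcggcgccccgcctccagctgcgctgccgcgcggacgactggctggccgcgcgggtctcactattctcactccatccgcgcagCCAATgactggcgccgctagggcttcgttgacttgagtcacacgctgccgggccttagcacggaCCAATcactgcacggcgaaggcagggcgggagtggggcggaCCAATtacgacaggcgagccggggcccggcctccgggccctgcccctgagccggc
Idi1 (chr13:8885356-8885605, plus strand): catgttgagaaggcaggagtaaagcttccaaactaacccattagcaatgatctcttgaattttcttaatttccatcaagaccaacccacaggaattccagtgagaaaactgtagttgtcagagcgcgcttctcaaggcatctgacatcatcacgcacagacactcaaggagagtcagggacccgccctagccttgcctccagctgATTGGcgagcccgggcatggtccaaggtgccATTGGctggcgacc
Hmgcs1 (chr13:119690101-119690350, plus strand): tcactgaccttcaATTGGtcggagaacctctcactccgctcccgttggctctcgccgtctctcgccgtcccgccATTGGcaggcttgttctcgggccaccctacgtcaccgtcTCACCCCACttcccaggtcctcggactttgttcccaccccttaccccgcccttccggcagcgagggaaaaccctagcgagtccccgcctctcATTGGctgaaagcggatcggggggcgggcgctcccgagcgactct
TCACNCCAC begins 137 bases before the start of Hmgcs1, with CCAAT motifs on either strand at 237, 176 and 45 bases. CCAAT was present in 9 of the 10 windows, and in 33.8% of all 32851 windows of the same length in the table, against 1.05% for TCACNCCAC. A match describes letters in this window and not a bound site. These windows were picked after the values of the genes were seen.

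Among regulators and importers of sterols, 13 genes were tested. Of these, 2 were called higher (against 5.59% of all genes) and 0 lower (median 0.41), and 5 higher by DESeq2. Srebf2, which encodes SREBP2, ran from 102 to 124 CPM in CDAHFD mild and from 74 to 92.1 CPM in FPC mild mice, ranges that did not overlap, with a diet difference of 0.94 ± 0.18 (adjusted p = 0.00357). Stard4, a cholesterol carrier, had 0.86 ± 0.26 (adjusted p = 0.0379) and lost its call in 13 of 23 settings. Of 11 targets of the sterol sensor LXR, 1 was called lower (4 without mouse CDAHFD_Control_9862, 5 by DESeq2): Abca1, a cholesterol exporter, at 604 to 766 CPM in CDAHFD mild and 966 to 1065 CPM in FPC mild mice (diet difference -0.95 ± 0.20, adjusted p = 0.0055). Abcg5, which overlaps Abcg8, had -1.29 ± 0.51 and was not called (adjusted p = 0.0941), but it was called in 3 of 23 settings.

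Of 20 genes for apolipoproteins and VLDL assembly, the diet difference was called lower for 3 (against 6.64% of all genes) and higher for 0 (median 0.01). On CDAHFD 7 of the 20 fell and 2 rose (against 24% and 32.8% of all genes). On FPC 3 fell and 2 rose (against 12.1% and 21.9%). Mttp, which loads triglyceride onto apolipoprotein B, was at 261, 225, 282 and 373 CPM in CDAHFD controls and 141, 134, 108 and 125 CPM in CDAHFD mild mice, and at 225, 275, 180 and 252 CPM in FPC controls and 247, 204, 219 and 205 CPM in FPC mild mice. CDAHFD mild mice were below every other mouse. The diet difference was -1.07 ± 0.25 (adjusted p = 0.012). Sar1b, a small GTPase of lipoprotein transport, had -0.84 ± 0.22 (adjusted p = 0.018). Apoa4, an apolipoprotein of newly made lipoproteins, rose on both diets, by 1.30 ± 0.29 on CDAHFD and by 3.49 ± 0.32 on FPC (diet difference -2.19 ± 0.41, adjusted p = 0.00328), from CDAHFD controls that were already above FPC controls (adjusted p = 0.0111).

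Genes that store and use fat were mostly not called. Among 23 genes of lipid droplets, uptake and lipolysis, 2 were called higher and 0 lower (median -0.35), while 12 rose on CDAHFD and 14 on FPC. Without mouse FPC_Mild_6887, 0 were called higher. Pnpla2, the main triglyceride lipase, had a diet difference of 1.51 ± 0.41 (adjusted p = 0.0246; 1.49 and adjusted p = 0.0509 without mouse FPC_Mild_6887), and Lipe, another lipase, 0.87 ± 0.26 (adjusted p = 0.033), called in all but 8 of 23 settings. Cidec, a droplet fusion protein, rose by 4.84 ± 0.47 on CDAHFD and 5.40 ± 0.44 on FPC, with a diet difference of -0.57 ± 0.68 that was not called (adjusted p = 0.612). Cidea, of the same family, had 0 counts in CDAHFD controls and 24 in CDAHFD mild mice, which is at least 10.2-fold higher against a floor of 3 counts over the group, and its diet difference was not called (adjusted p = 0.73). The differences of Plin2 (-0.65 ± 0.44), Plin4, which overlaps Hdgfrp2 (-0.50 ± 0.47) and Cd36 (1.76 ± 0.65) were not called, with adjusted p from 0.0786 for Cd36 to 0.515 for Plin4. Cd36 was called in 5 of 23 settings, among them DESeq2 (adjusted p = 0.0278). Among 26 genes of fatty acid oxidation and ketogenesis, 2 were called lower and 0 higher (median -0.18), among them Decr1, of the oxidation of unsaturated fatty acids, at -0.79 ± 0.24 (adjusted p = 0.0362, lost in 10 of 23 settings). Fgf21 (-1.66 ± 1.01), Cyp4a14 (0.66 ± 1.36) and Pdk4 (0.85 ± 0.83), genes of the fasting response, rose on both diets and had diet differences with adjusted p of 0.291, 0.787 and 0.526.

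Choline and one-carbon genes were mostly not called, with 2 of 30 tested higher and 3 lower (against 5.59% and 6.64% of all genes). Their median was -0.11. Slc44a1, a choline transporter, was at 75.3, 106, 123 and 135 CPM in CDAHFD controls and 44.4, 48.9, 50 and 59.3 CPM in CDAHFD mild mice. It was at 133, 90.7, 152 and 135 CPM in FPC controls and 111, 144, 150 and 145 CPM in FPC mild mice. Each CDAHFD mild mouse was below all others, a fall of 1.12 ± 0.19 on that diet and a diet difference of -1.22 ± 0.26 (adjusted p = 0.00732). Cept1, which completes phosphatidylcholine from the choline branch and overlaps Dennd2d and Dram2, had -1.15 ± 0.28 (adjusted p = 0.0131), with 62.8 to 68.4 CPM in CDAHFD mild and 114 to 175 CPM in FPC mild mice. Ahcy, which clears the product of methylation reactions, fell by 1.18 ± 0.31 on FPC and had a diet difference of 1.71 ± 0.43 (adjusted p = 0.0161), and Aldh7a1, which makes betaine among other products and overlaps Phax, had 0.84 ± 0.19 (adjusted p = 0.00916). Pemt, which makes phosphatidylcholine without choline, had 0.09 ± 0.35, Pcyt1a 0.17 ± 0.15, Chka -0.96 ± 0.60, Bhmt -0.68 ± 0.97 and Etnppl -0.13 ± 1.03, with adjusted p from 0.3 for Chka to 0.949 for Etnppl.

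Of 22 genes of fructose and glucose metabolism, 2 were called lower and 0 higher (median -0.52), a share of 9.09% against 6.64% of all genes called lower. Ppp1r3b, which directs glycogen synthesis, had a diet difference of -1.92 ± 0.47 (adjusted p = 0.0142), and Pygl, which breaks glycogen down, -1.09 ± 0.30 (adjusted p = 0.0227; -0.90 and adjusted p = 0.0512 without mouse CDAHFD_Control_10113). Khk, the fructokinase, fell by 1.79 ± 0.33 on CDAHFD and by 0.88 ± 0.32 on FPC, and its diet difference of -0.91 ± 0.45 was not called (adjusted p = 0.184). Txnip, a brake on glucose uptake, at -0.44 ± 1.08 was not called either (adjusted p = 0.825).

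Glutathione transferases and other targets of the oxidative stress factor NRF2 rose on CDAHFD for 14 of 20 genes tested (against 32.8% of all genes). They rose on FPC for 5 of the 20 (against 21.9%). The diet difference was called higher for 6 (against 5.59% of all genes) and lower for 0 (median 1.12), and 7 were lower in CDAHFD than in FPC controls. Gsta4 (NM_010357, mm10 chromosome 9, 78191966 to 78209349), which detoxifies products of lipid peroxidation, was at 1.09, 1.86, 3 and 2.56 CPM in CDAHFD controls and 8.47, 7.82, 7.34 and 9.76 CPM in CDAHFD mild mice. It was at 15.1, 14, 13.7 and 12.4 CPM in FPC controls and 4.35, 5.73, 4.98 and 5.44 CPM in FPC mild mice. All 4 groups lay apart, with FPC controls highest and CDAHFD controls lowest. It rose by 1.98 ± 0.27 on CDAHFD and fell by 1.43 ± 0.25 on FPC (diet difference 3.41 ± 0.37, adjusted p = 2.19e-05).

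Gsta1 went from 0 to 0.314 CPM in CDAHFD controls to 15 to 21.1 CPM in CDAHFD mild mice, against 1.91 to 5.37 and 4.83 to 8.4 CPM in FPC control and mild mice (diet difference 5.65 ± 0.75, adjusted p = 0.000247). Gsta2 had 5.15 ± 0.75 and Gm10639 5.38 ± 0.70, and the reads of these near-identical genes could be divided among them. Gm3776, of the same family, had 1 count in all CDAHFD controls and 931 in CDAHFD mild mice, a ratio of CPM of 1180 (95% exact interval for counting error 212 to 46700). Gstt2, of another transferase class, had 2.56 ± 0.37 (adjusted p = 0.000439), Ugdh, which supplies glucuronic acid, 1.69 ± 0.28 (adjusted p = 0.00128), and Hmox1, which degrades heme, 1.71 ± 0.46 (adjusted p = 0.0215). Nqo1 at 1.38 ± 0.44 (adjusted p = 0.0454) lost its call in 15 of 23 settings. Slc7a11, the cystine importer, rose on both diets from 1 count in each control group to 152 in CDAHFD mild and 73 in FPC mild mice. The ratios were 193 (95% exact interval 34.1 to 7670) and 75.4 (13.1 to 3020), and the diet difference was not called (adjusted p = 0.721). Fitted changes of genes with so few counts depend on the prior count that the fit adds.

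Cytochromes P450 for foreign compounds and their receptors were called higher for 6 of 22 and lower for 1 (against 5.59% and 6.64% of all genes). Their median was 0.97, and 10 of the 22 fell on FPC (against 12.1%). Cyp2a5, a coumarin hydroxylase, was at 21.5, 52.1, 43.6 and 44.8 CPM in CDAHFD controls, 241, 167, 182 and 290 CPM in CDAHFD mild, 184, 228, 147 and 90.9 CPM in FPC controls and 97.4, 67.3, 90.9 and 79.4 CPM in FPC mild mice (diet difference 3.40 ± 0.50, adjusted p = 0.000632). The mild groups lay apart, and CDAHFD controls were below every other mouse. Cyp3a11, the main drug-oxidising form, had 3.34 ± 0.85 (adjusted p = 0.0182), with the mild groups overlapping and FPC controls from 355 to 1636 CPM against 8.5 to 91.9 CPM in CDAHFD controls. Without mouse CDAHFD_Mild_9852, mouse FPC_Control_6816 or mouse FPC_Mild_6887 the list had 3 higher genes. Copies of the Cyp2a, Cyp2b and Cyp3a families are alike enough for reads to be divided, so their values are uncertain.

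Of 21 bile acid genes, 2 were called higher and 0 lower (median 0.09), a share of 9.52% against 5.59% of all genes called higher, and 4 were called higher without mouse FPC_Mild_6886. Both called genes encode exporters of the basal membrane. Abcc3 was at 52.7 to 112 CPM in CDAHFD controls and 364 to 656 CPM in CDAHFD mild mice, and at 200 to 500 and 273 to 627 CPM in FPC control and mild mice (diet difference 2.15 ± 0.40, adjusted p = 0.00294). CDAHFD controls were below all FPC mice, and the mild groups overlapped. Abcc4 rose on both diets, by 3.92 ± 0.42 and 1.73 ± 0.37 (diet difference 2.19 ± 0.54, adjusted p = 0.0149). Cyp7a1, which starts the main route to bile acids, at 1.30 ± 0.77 and Cyp8b1, the 12-alpha-hydroxylase, at -0.45 ± 0.54 were not called (adjusted p = 0.278 and 0.609).

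Genes that differ between the sexes in mouse liver were counted next. Of 20 male-biased genes, 14 fell on CDAHFD and 13 on FPC, with a median diet difference of -1.16 and 0 called by edgeR, 7 of them lower at an unadjusted p under 0.05. DESeq2 called 2 lower, and edgeR 4 without mouse FPC_Control_6953. Hsd3b5, a male-specific steroid enzyme, fell by 5.72 ± 0.60 and 3.68 ± 0.54 (diet difference -2.04 ± 0.70, adjusted p = 0.0631), and Mup20 had -1.12 ± 0.69 (adjusted p = 0.294). Hsd3b5 was called lower by DESeq2 (adjusted p = 0.0473) and by edgeR without mouse FPC_Mild_6886 or mouse CDAHFD_Mild_9894. Of 14 female-biased genes, 6 rose and 1 fell on CDAHFD (against 32.8% and 24% of all genes). On FPC 2 rose and 0 fell (against 21.9% and 12.1%). A higher diet difference was called for 4 of them (against 5.59% of all genes) and lower for 0 (median 0.94), and higher for 0 without mouse FPC_Control_6816. Cyp2b9 was at 0.427 to 6 CPM in CDAHFD controls and 112 to 869 CPM in CDAHFD mild mice, and ran from 1.25 to 209 CPM in FPC controls, so its diet difference of 7.06 ± 1.94 (adjusted p = 0.0265) fell to 5.02 (adjusted p = 0.0753) without that mouse. Cyp2b9 lost its call in 4 of 23 settings. Cyp2b13 at 3.73 ± 1.02 (2.94, adjusted p = 0.0655 without it, and 3.61, adjusted p = 0.0501 without mouse CDAHFD_Mild_9852) was also called, as was Atp6v0d2, given with the macrophage markers. Cux2, a repressor of male-biased genes, had -0.12 ± 0.80 (adjusted p = 0.939). Of 18 genes of growth hormone and insulin signalling, 0 were called either way by edgeR or DESeq2 (median -0.42), with 4 lower and 0 higher at an unadjusted p under 0.05.

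Targets of the inflammatory factor NF-kB rose for most members on both diets, 16 of 19 on CDAHFD (against 32.8% of all genes) and 12 of 19 on FPC (against 21.9%). The diet difference was called higher for 7 of the 19 (against 5.59%) and lower for 0 (median 0.42). Tnfaip3, which shuts NF-kB signalling off, was at 3.09, 3.3, 4.25 and 2.88 CPM in CDAHFD controls and 26.7, 22, 26.5 and 22.6 CPM in CDAHFD mild mice, and at 4.61, 2.35, 5.18 and 3.37 CPM in FPC controls and 12.2, 12.6, 10.4 and 11.3 CPM in FPC mild mice. Both mild groups lay above the controls and CDAHFD mild above FPC mild (diet difference 1.29 ± 0.28, adjusted p = 0.00833). Nfkbie, an inhibitor of NF-kB, had 1.47 ± 0.31 (adjusted p = 0.00622), Nfkb2, a subunit whose gene overlaps Psd, 1.46 ± 0.38 (adjusted p = 0.0186), and Birc3, an inhibitor of cell death, 0.65 ± 0.16 (adjusted p = 0.0159).

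Of 25 acute phase genes, 9 rose and 2 fell on CDAHFD (against 32.8% and 24% of all genes). On FPC 4 rose and 8 fell (against 21.9% and 12.1%). The diet difference was called higher for 4 (against 5.59% of all genes) and lower for 0 (median 0.82), and higher for 2 without any 1 of 5 mice (CDAHFD_Control_9862, CDAHFD_Mild_9852 and CDAHFD_Mild_10102, FPC_Control_6816, FPC_Mild_6888). Orm2, a plasma orosomucoid, was at 10.8 to 18.2 CPM in CDAHFD mild mice and at 3.47 CPM or less in every other mouse (diet difference 3.27 ± 0.62, adjusted p = 0.00319). Socs3, which limits STAT3 signalling, had 2.31 ± 0.61 (adjusted p = 0.0198), with mild groups at 6.32 to 15 CPM and 1.98 to 3.43 CPM. Orm3 at 2.08 ± 0.67 and Il1rn at 1.73 ± 0.55 lost their calls in 14 and 12 of 23 settings. Saa1 and Lcn2 rose on both diets, with diet differences of 1.16 ± 0.56 and 1.86 ± 1.10 that were not called (adjusted p = 0.172 and 0.271).

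Of 28 complement and coagulation genes, 13 fell and 2 rose on CDAHFD (against 24% and 32.8% of all genes). On FPC 16 fell and 0 rose (against 12.1% and 21.9%). Higher diet differences were called for 7 of the 28 (against 5.59% of all genes) and lower for 0 (median 0.34), and higher for 3 without mouse CDAHFD_Mild_9852 or with the length offset. F10, which activates prothrombin, fell by 0.89 ± 0.15 on FPC and changed by 0.21 ± 0.15 on CDAHFD (diet difference 1.10 ± 0.21, adjusted p = 0.00338). Proc, an anticoagulant protease, had 0.68 ± 0.15 (adjusted p = 0.00829), Serping1, the C1 inhibitor, 0.70 ± 0.20 (adjusted p = 0.0266, lost in 6 of 23 settings), and Cfb, of the alternative complement pathway, which rose by 1.33 ± 0.19 on CDAHFD, 1.17 ± 0.26 (adjusted p = 0.00891). Of 27 genes of interferon response and antigen presentation, 3 were called higher (11.1%, against 5.59% of all genes) and 0 lower (median 0.07). Irf1 was at 59.6 to 85.2 CPM in CDAHFD mild mice and at 41.7 CPM or less in the other 12 (diet difference 1.60 ± 0.33, adjusted p = 0.00603), the class I molecule H2-K1 had 1.20 ± 0.25 (adjusted p = 0.00633), and H2-D1, a near copy, 1.13 ± 0.36, lost in 16 of 23 settings.

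Stress response genes were called for 2 of 23 (median 0.14): Trib3, a target of ATF4, at 26.2 to 38.2 CPM in CDAHFD mild mice and 12.3 CPM or less elsewhere (diet difference 2.49 ± 0.68, adjusted p = 0.0243; 2.24 and adjusted p = 0.0511 without mouse FPC_Control_6852), and Atf4 itself at 0.80 ± 0.26, lost in 13 of 23 settings. Gdf15 had -0.47 ± 0.75 (adjusted p = 0.719). Of 21 genes of amino acid breakdown and the urea cycle, 2 were called higher (9.52%, against 5.59% of all genes) and 0 lower (median 0.29), Prodh at 1.68 ± 0.38 (adjusted p = 0.0106) and Gpt at 1.57 ± 0.38 (adjusted p = 0.0141). Among 19 clock genes 3 were higher and 1 lower (against 5.59% and 6.64% of all genes, median 0.50). Rora, a clock activator, had -0.96 ± 0.22 (adjusted p = 0.00932), while Nr1d1, Bhlhe41 and Dbp (which overlaps Sphk2), at 1.22, 2.23 and 2.53, lost their calls in 10, 12 and 16 of 23 settings. Of 17 immediate early genes, Ier2 at 2.03 ± 0.55 (adjusted p = 0.024) and Egr1 at 3.62 ± 1.16 (lost in 14 of 23 settings) were called. The hour of death is not given in the sources used here, and its part in the clock and early genes was not tested.

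Proliferation genes rose on both diets. Of 25 cell cycle genes, 21 rose on CDAHFD and 23 on FPC (against 32.8% and 21.9% of all genes). In the diet difference 4 were called higher (against 5.59%) and 0 lower (median 0.78). Mki67 (NM_001081117, mm10 chromosome 7, 135689788 to 135716379), a protein of dividing cells, was at 0.227, 0.233, 0.312 and 0.135 CPM in CDAHFD controls and 66.6, 72.8, 57 and 71 CPM in CDAHFD mild mice. It was at 1.83, 0.953, 2.5 and 2.88 CPM in FPC controls and 13.8, 47.9, 27.1 and 32.5 CPM in FPC mild mice. All 4 groups lay apart, and the controls differed from each other by -3.17 ± 0.56 (log2, CDAHFD minus FPC; adjusted p = 0.00209). The diet difference was 4.32 ± 0.65 (adjusted p = 0.000798), and 0.87 (adjusted p = 0.0475) in whole liver nuclei. Top2a, Cdc20 (which overlaps Elovl1) and Kif20a (which overlaps Brd8 and Cdc23), of mitosis, at 1.65, 3.54 and 1.78, lost their calls in 16, 13 and 7 of 23 settings, so without any 1 of 6 mice (FPC_Mild_6825 and FPC_Mild_6887, FPC_Control_6816 and FPC_Control_6953, CDAHFD_Control_10113, CDAHFD_Mild_9853) 1 gene of the list was called. Iqgap3, a scaffold protein outside that list, went from 2 counts in all CDAHFD controls to 732 in CDAHFD mild mice, a ratio of 465 (95% exact interval 128 to 3840).

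Fetal, progenitor and biliary-type genes rose on both diets, 21 of 23 on CDAHFD and 20 on FPC, with 2 called higher and 0 lower (median 0.38). Spp1, which encodes osteopontin, was at 9.64, 5.3, 16.4 and 19 CPM in CDAHFD mild and 12.8, 11.4, 14.8 and 12.7 CPM in FPC mild mice, with a diet difference of 0.01 ± 0.47 (adjusted p = 0.994). Bicc1 had -0.34 ± 0.38, Glis2 1.20 ± 0.65 and Elf3 2.46 ± 0.84, with adjusted p of 0.578, 0.226 and 0.0573. Elf3 was called by DESeq2 (adjusted p = 0.00983), with the 16 libraries alone, with the subtraction, and without mouse FPC_Mild_6886 or mouse CDAHFD_Control_10113. Golm1, a Golgi protein, had 1.78 ± 0.45 (adjusted p = 0.0172), and Krt23, a keratin, 1.71 ± 0.54, lost in 10 of 23 settings. Of 20 targets or members of the YAP pathway, 1 was higher and 2 lower (against 5.59% and 6.64% of all genes, median 0.02). Yap1 itself was at 152 to 173 CPM in CDAHFD mild and at 222 CPM or more in every other mouse (diet difference -0.64 ± 0.13, adjusted p = 0.00519), Dlc1 had -1.11 ± 0.35 (lost in 13 of 23 settings), and Ankrd1 was called higher (lost in 6 of 23), from 3 counts in CDAHFD controls to 382 in CDAHFD mild mice, a ratio of 162 (95% exact interval 54.9 to 787). Among 18 p53 targets, Mdm2 was called at 0.63 ± 0.17 (adjusted p = 0.0212; 0.57 and adjusted p = 0.0532 without mouse CDAHFD_Mild_9852), and Cdkn1a had -0.88 ± 0.60 (adjusted p = 0.347).

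Hepatocyte transcription factors were called higher for 1 of 21 and lower for 3 (against 5.59% and 6.64% of all genes, median -0.32). Hnf4a, a master factor of hepatocyte identity, fell on both diets, with a diet difference of 0.10 ± 0.23 (adjusted p = 0.803). Hnf4g rose by 1.19 ± 0.21 on FPC and changed by 0.02 ± 0.20 on CDAHFD (diet difference -1.17 ± 0.29, adjusted p = 0.0144), from CDAHFD controls above FPC controls by 1.48 ± 0.21. Nfia had -0.90 ± 0.22 (adjusted p = 0.0129), and Nr5a2 at -0.62 ± 0.19 and Cebpb at 1.40 ± 0.40 lost their calls in 13 and 7 of 23 settings. Of 21 pericentral genes 1 was lower and 0 higher (median -0.01), and 0 lower without any 1 of the 16 mice other than CDAHFD_Control_10110, CDAHFD_Control_9862, CDAHFD_Mild_10102, FPC_Mild_6886 and FPC_Mild_6888. Of 20 periportal genes 2 were higher and 0 lower (median 0.17), or 0 higher without any 1 of 5 mice (CDAHFD_Mild_9852, FPC_Control_6816 and FPC_Control_6952, FPC_Mild_6887 and FPC_Mild_6888). Of 13 hepatocyte markers 1 was called higher and 0 lower, 7.69% against 12.2% of all genes called. Their median was 0.3, and 4 of the 13 had negative diet differences. The called marker was Asgr1, a receptor that marks hepatocytes, at 1.25 ± 0.32 (adjusted p = 0.018).

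Genes outside the lists were among those with the smallest p. Pard3b (NM_001081050, mm10 chromosome 1, 61638824 to 62642284), a cell polarity gene, was at 144 to 156 CPM in the 4 CDAHFD mild mice and at 464 to 602 CPM in FPC mild mice, from 574 to 886 CPM in the controls (diet difference -1.66 ± 0.16, adjusted p = 1.85e-05). Trhde, an ectopeptidase, was at 124, 146, 90 and 164 CPM in CDAHFD controls and 2.1, 2.01, 0.734 and 2.32 CPM in CDAHFD mild mice, and at 234, 197, 261 and 206 CPM in FPC controls and 56.2, 60.8, 53.8 and 43 CPM in FPC mild mice. It fell on both diets, and all 4 groups lay apart (diet difference -4.13 ± 0.42, adjusted p = 2.19e-05). Lepr, the leptin receptor, was at 16, 3.34, 13.1 and 14.6 CPM in CDAHFD controls, 3.42, 3.55, 3.91 and 3.5 CPM in CDAHFD mild, 2.06, 1.46, 0.925 and 1.25 CPM in FPC controls and 14.9, 6.41, 9.24 and 6.71 CPM in FPC mild mice. The FPC groups lay apart, and 3 CDAHFD controls were above the CDAHFD mild mice with mouse CDAHFD_Control_9867 just below them (diet difference -4.41 ± 0.55, adjusted p = 0.000167).

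Other genes lower in the diet difference went opposite ways on the 2 diets. Gpc6, a glypican, fell by 1.14 ± 0.26 on CDAHFD and rose by 2.14 ± 0.26 on FPC (diet difference -3.29 ± 0.37), Igf2bp2, an RNA-binding protein, had -3.48 ± 0.47, Jazf1 -2.75 ± 0.36, Cacng7 -3.11 ± 0.42, Astn2 -2.85 ± 0.39 and Zswim6 -1.29 ± 0.16, with adjusted p from 3.75e-05 to 0.000307. Ppm1h, a phosphatase, at -1.47 ± 0.19, and Mpped1, at -5.35 ± 1.04, rose on FPC and were not called on CDAHFD. 4930452B06Rik fell by 3.40 on CDAHFD and rose by 1.33 on FPC (diet difference -4.74 ± 0.50).

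Among genes higher in the diet difference, Arhgef2, an exchange factor for RhoA that binds microtubules, was at 0.728, 1.05, 1.56 and 1.39 CPM in CDAHFD controls and 134, 138, 121 and 91.9 CPM in CDAHFD mild mice, and at 2.1, 2.02, 0.74 and 1.63 CPM in FPC controls and 16.8, 22.1, 15.9 and 20.9 CPM in FPC mild mice. Controls overlapped and both mild groups lay above them (diet difference 3.15 ± 0.40, adjusted p = 0.000167). Mybl1, a transcription factor, rose by 5.07 ± 0.25 on CDAHFD and 2.78 ± 0.23 on FPC (diet difference 2.29 ± 0.33, adjusted p = 0.000379). Vtcn1, an inhibitor of T cells, at 2.98 ± 0.38, Cd1d1, which presents lipids to T cells, at 1.30 ± 0.17, and Spaca6, at 1.85 ± 0.26, were each lower in CDAHFD than in FPC controls, and their mild groups compared directly had adjusted p of 0.713, 0.936 and 0.352. Mpnd, which overlaps Sh3gl1, had 1.72 ± 0.24 and Prg4, a lubricating proteoglycan whose gene overlaps Tpr, 1.5 ± 0.22. Clec2h, a C-type lectin, fell on FPC to 7.54, 1.6, 7.95 and 1.37 CPM and was at 42.4 to 126 CPM in CDAHFD mild mice (diet difference 5.75 ± 1.36, adjusted p = 0.0134).

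Markers of other liver cells moved with the groups. In bulk nuclei, fewer cells of a type and less RNA per cell cannot be told apart. Endothelial markers had negative diet differences for 17 of 19 tested (median -0.55), 2 of them called, and their summed level was 190.6 to 225.7 CPM in CDAHFD mild and 241 to 437.7 CPM in FPC mild libraries, against 87.27 to 139.2 and 91.39 to 150.7 CPM in their controls. Tek at -1.32 ± 0.43 and Cdh5 at -1.40 ± 0.46 lost their calls in 15 of 21 and 13 of 22 settings. With the 16 libraries alone the list had 0 called genes. The list also had 0 after whole liver signal was subtracted in proportion to the endothelial share. That step takes out the endothelial marker sum by construction, and Tek was not tested there, so it is no check of this list. With the length offset the list had 0 as well, but Tek and Cdh5 have no length and were not tested there. Summed recruited macrophage markers were at 74.54 to 111.5 CPM in CDAHFD mild and 33.98 to 50.51 CPM in FPC mild libraries, against 7.06 to 28.82 and 7.136 to 10.05 CPM in their controls. Of the 14 markers tested, 7 had positive and 6 negative diet differences, from -2.51 to 2.48, and Cx3cr1 was at 0. edgeR called 0 lower and DESeq2 1, and 2 were called lower with the subtraction. Higher diet differences were called for 3, or for 1 without any 1 of CDAHFD_Control_9862, CDAHFD_Mild_9853, CDAHFD_Mild_9894 and FPC_Control_6952. The count was also 1 with the subtraction, where Itgam was not tested. With the length offset it was 1 too, but Itgam and Atp6v0d2 have no length and were not tested there. The 3 called with all mice were Cd63, of lysosomes, at 1.70 ± 0.42 (adjusted p = 0.0149), Itgam, an integrin of myeloid cells, at 1.93 ± 0.58 (lost in 7 of 21 settings), and Atp6v0d2, of a proton pump, at 1.94 ± 0.59 (lost in 11 of 22, and -7.71 with that subtraction). Exact permutation tests between mild groups gave p = 0.0286 for both sums, the smallest value that 4 against 4 mice allow, or 0.041 after Benjamini-Hochberg adjustment over 33 such tests. The part of these cells in the diet differences of single genes was examined only through the subtraction of whole liver signal. Of the 147 named genes, the call stayed the same with it in 131, was lost in 11, gained in 1 and reversed in 1. The rest were not tested there. That subtraction follows endothelial markers only, and the part of the other cell types was not tested.

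**Figure D5:**
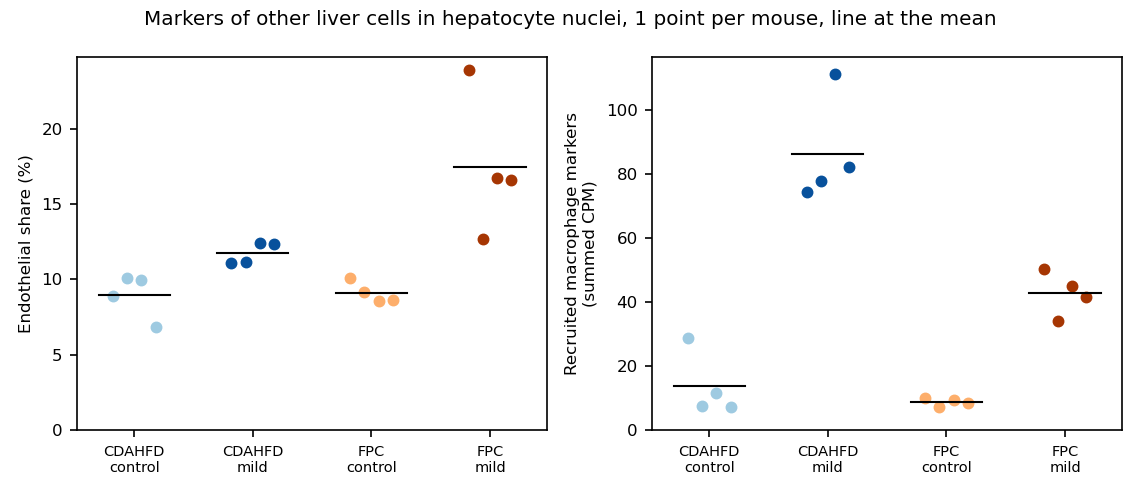
Each point is 1 hepatocyte library and each line the mean of 4 mice, for the endothelial share (%) at the left and the summed CPM of recruited macrophage markers at the right. FPC mild libraries have the higher endothelial share, up to 23.9%, and CDAHFD mild libraries the higher macrophage sum, 74.54 to 111.5 CPM.

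Resident macrophage and stellate cell markers differed for few genes. Timd4, a receptor of resident Kupffer cells, was at 0.155 to 0.514 CPM in CDAHFD mild and 1.37 to 9.66 CPM in FPC mild libraries (diet difference -3.35 ± 0.85, adjusted p = 0.0163), 1 of 13 tested. With the subtraction and with the length offset 0 of these markers were called lower, but Timd4 was not tested in either. Of 20 stellate cell markers 2 were lower and 0 higher, while their summed level was higher in CDAHFD mild (310.4 to 441.2 CPM) than in FPC mild libraries (231.4 to 280.1 CPM). The called members were Ntm at -1.93 ± 0.45 (adjusted p = 0.0112) and Bgn at -1.35 ± 0.43 (lost in 14 of 22 settings), and with whole liver signal subtracted Ntm was not called either (-6.05, adjusted p = 0.146). Col1a1, the main collagen of scars, rose on both diets and had a diet difference of -0.16 ± 0.42 (adjusted p = 0.832). Of 35 collagen and matrix genes, 1 was called lower and 0 higher (median -0.16). The lower count was 0 without any 1 of the 16 mice other than CDAHFD_Control_9862, CDAHFD_Control_9867, CDAHFD_Mild_9894, FPC_Control_6852, FPC_Mild_6886 and FPC_Mild_6888. That count was also 0 with the subtraction, with the length offset and with the 16 libraries alone. The offset did not test Bgn, which has no length. None of 10 lymphocyte, 14 cholangiocyte, 3 mesothelial and 1 neutrophil markers tested was called by edgeR or DESeq2, and 1 of them, a mesothelial marker, had an unadjusted p under 0.05. Summed mesothelial markers were at 14.12 to 37.68 CPM in CDAHFD mild and 39.83 to 69.4 CPM in FPC mild libraries (exact permutation test, adjusted p = 0.041 over 33 tests). Their mean log2 levels overlapped between these groups (adjusted p = 0.302 over 27 such tests).

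Whole liver nuclei of the same mice gave fewer calls, 388 genes higher and 334 lower of 14413 tested (2.69% and 2.32%, 5.01% in all). Leaving out 1 mouse gave 255 higher and 169 lower without FPC_Mild_6887, 243 and 180 without CDAHFD_Mild_9894, and 216, 218, 209 and 221 lower without FPC_Control_6816, FPC_Control_6852 and FPC_Control_6952 and CDAHFD_Mild_9852. Of the 772 genes higher in hepatocyte nuclei, 769 were tested in whole liver, 731 had the same sign and 153 were called with it, 0 with the opposite sign. Of the 917 lower genes, 874 had the same sign, 199 were called with it and 1 with the opposite sign. Whole liver libraries contain hepatocyte nuclei, so these are not independent samples. Scd1 had -6.14 in whole liver (adjusted p = 7.5e-05), Pnpla3 -5.91 (adjusted p = 0.000499) and Mvd 2.23 (adjusted p = 0.00794), while Slc44a1 at -0.26, Abcc4 at 0.54 and H2-K1 at 0.13 were not called there. In whole liver 11 of 20 cholesterol synthesis genes were called higher and 8 of 20 fatty acid and triglyceride synthesis genes lower, with medians of 1.43 and -1.78.

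At the advanced stage, where the same control libraries enter, the corresponding difference was called higher for 622 genes (4.5%) and lower for 1016 (7.36%). Side by side, the mild and advanced values were -7.07 and -5.74 for Scd1, 2.55 and 2.11 for Mvd, 3.41 and 2.84 for Gsta4, 4.32 and 3.63 for Mki67, 3.15 and 1.63 for Arhgef2, and -4.13 and -2.69 for Trhde. Apoa4 had -2.19 and -0.14, Abcc4 2.19 and -0.21, and Hnf4g -1.17 and -3.24. Whether the mild and advanced differences differ was not tested.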

How the data were processed

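RNA of tagged hepatocyte nuclei and of whole liver nuclei of 22 male mice was sequenced from 50 to 100 ng of total RNA with a stranded kit and no selection for poly-A tails, per the labels' protocols. The authors aligned reads to mm10 with STAR 2.4.2a and used DESeq2 1.24.0, per the submitters' processing notes. Neither the counting program nor its handling of strand is given in the sources used here. The deposited tables hold raw read counts per RefSeq transcript, and the counted length equalled the whole gene for 94.7% of the 13147 genes in the authors' deposited table, so introns were counted. That table also gives the authors' log2 fold changes and adjusted p-values, which were used here for gene symbols and lengths only.

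Of 20105 identifiers, 13147 took their symbol from that table and 6879 from a RefSeq gene table, and 79 had none. The 22 hepatocyte libraries, 6 of them advanced disease, were fitted together with edgeR 4.0.16 (R 4.3.3): genes filtered by filterByExpr, TMM scaling, robust quasi-likelihood test, and Benjamini-Hochberg adjustment over all genes tested with a threshold of 0.05. Whole liver libraries were fitted the same way. Single values per mouse were compared by two-sided exact permutation tests. The code was tested on simulated counts. CPM of single genes are relative to the library total multiplied by its TMM factor. Summed marker CPM, and the ratios for genes with few counts, are relative to all counts of a library without that factor. Levels of single genes and marker sums are therefore on different scales. Exact intervals and floors for genes with few counts cover counting error only.

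Genes named are the 12 with the smallest p and the 8 with the largest change in each direction at a mean of 1 CPM or more, up to 4 called members of each list, 2 members of lists without calls, a set of genes known for their roles in fatty liver, and those stated as picked later. A few genes that this rule names are not reported here. The members and lists were chosen with earlier results of these data known. Alternatives were DESeq2 1.42.0 and its scaling, no filter, a stricter filter, the 16 libraries alone, leaving out each mouse, subtraction of whole liver signal, and a gene-length offset chosen after seeing the data. No other column of sample values was used.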

Additional observations from a re-analysis of the deposited data

Results flagged for a closer look

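The diet difference itself was a tested difference between the 2 diets, and passed the threshold for 772 genes above 0 and 917 below 0. Single mice far from the other 3 of their group were looked for by Dixon's test in 588 gene groups (147 genes in 4 groups) and 44 groups of library measures. Of these, 47 held such a mouse, and chance alone gives about 1 in 20.

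Mouse FPC_Mild_6825, which had the highest endothelial share, stood apart for 8 genes. It was above the other 3 for Elovl6 at 1113 CPM, Thrsp at 85.7 CPM, Txnip at 58.2 CPM, the droplet genes Cidea at 17 CPM and Cidec at 34.6 CPM, and Bgn at 6.58 CPM. It was below them for Plin4 at 84.5 CPM and Slc44a1 at 111 CPM. In mouse FPC_Mild_6886 Scd3 (3.35 CPM), Fgf21 (13.4 CPM), Elf3 (1.6 CPM) and Serping1 (171 CPM) were high, and in mouse FPC_Mild_6887 Prg4 was low at 25.1 CPM.

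Mouse CDAHFD_Mild_10102 was high for Thrsp (6.63 CPM), Bhmt (380 CPM against 36.7 to 85.2 CPM), Hnf4g (24.2 CPM), Orm3 (16.4 CPM) and Prodh (372 CPM), and low for Asgr1 (69.2 CPM). Mouse CDAHFD_Mild_9852 of that group was high for Gsta2 (29.4 CPM), Gm3776 (15.4 CPM) and Mup20 (169 CPM), and low for Slc7a11 (1.48 CPM), Ppm1h (67.7 CPM) and the endothelial marker sum (190.6 CPM against 224.1 to 225.7 CPM). Mouse CDAHFD_Mild_9894 was high for Mvd (14.4 CPM) and Mpnd (34 CPM) and low for Ppp1r3b (30.7 CPM).

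Among CDAHFD controls, mouse CDAHFD_Control_9862 was high for Cidec (1 CPM), Cd36 (6.37 CPM), Astn2 (21 CPM), Mpnd (14.8 CPM) and Gm3776 (0.0455 CPM, a single count). It was low for Gpt (28.9 CPM) and for the stellate marker sum, 167 CPM against 313.8 to 334.6 CPM. Mouse CDAHFD_Control_10113 had Etnppl at 780 CPM against 19.6 to 142 CPM, Pnpla2 at 5.26 CPM and Slc7a11 at 0.0449 CPM (a single count), and mouse CDAHFD_Control_10110 had Spp1 at 3.12 CPM. Among FPC controls, mouse FPC_Control_6816 had Abcg5 at 266 CPM, Krt23 at 5.28 CPM, Gm3776 at 2.73 CPM and Slc7a11 at 0.0447 CPM (a single count). Mouse FPC_Control_6852 had F10 at 209 CPM and Bgn at 2.3 CPM, and mouse FPC_Control_6952 had Astn2 at 5.41 CPM and Tek at 3.98 CPM.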

How the results depend on the processing

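Counts of the diet difference changed as follows, higher genes first: 776 and 972 with DESeq2's scaling in edgeR, 1102 and 1345 with DESeq2, 616 and 744 with no filter, 845 and 994 with a stricter filter, 1146 and 969 with the 16 libraries alone, 671 and 1014 with subtraction of whole liver signal, and 740 and 800 with the gene-length offset. Leaving out 1 mouse gave 400 to 1033 higher and 489 to 1078 lower genes. Over the same omissions the CDAHFD change ranged from 4096 to 4590 higher and from 2944 to 3419 lower, and the FPC change from 2597 to 3124 and from 1231 to 1786. Controls against each other ranged from 72 to 201 and from 210 to 408, and whole liver from 243 to 430 and from 169 to 367. Beyond 1.5 times, the FPC change moved to 1590 higher and 829 lower with the subtraction and to 1896 higher with the offset, the control difference to 324 higher and 642 lower with DESeq2 and to 94 higher with the subtraction, and whole liver to 643 higher with DESeq2. The cause was not tested. The subtraction and the offset also tested fewer genes, 12991 and 12152 against 13808. Atp6v0d2 reversed to -7.71 (adjusted p = 0.0402) with the subtraction. Stellate markers summed in CPM were higher in CDAHFD mild than in FPC mild mice (310.4 to 441.2 against 231.4 to 280.1 CPM), while their mean log2 level was lower, by -0.4008 (exact permutation test, adjusted p = 0.0367 over 27 tests). No paired analysis was possible for the diet difference because the numbers in the labels are mouse numbers that no 2 groups share in hepatocyte nuclei. There, each mouse belongs to 1 group. The hepatocyte and whole liver libraries of a mouse do share its number, but the difference between them within a mouse was not tested. Genes with few counts in the controls are limited by depth, and diet and weeks on it cannot be told apart.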
